A study of Mus musculus with 4 samples.

Results

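Chromatin that carried ATAC-seq signal in wild-type 3T3 fibroblasts and almost none in Rela knockout 3T3 fibroblasts was described at regions to which the deposited annotation assigns no gene. A region belonged to this set when its gene field was blank, its signal was 35 or more in wild-type cells and its signal was 3 or less in knockout cells. Of 18304 regions without a gene, 235 met the rule (1.28%), out of 28445 regions in the Rela table. They are called wild-type-only regions here. The regions were chosen by their signal in both genotypes, so the contrast within them is a description and is not tested. The label only restates the rule: knockout signal was near 0 by selection, which does not show that it was absent.

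ATAC-seq uses the Tn5 transposase to cut accessible DNA and attach sequencing adapters, so that fragments accumulate where nucleosomes leave the DNA exposed. The cells were 3T3 mouse embryo fibroblasts, an established line, as Rela wt and as Rela K.O., and mouse kidney fibroblasts, as Kindlin-2 floxed and as Kindlin-2 K.O. All 4 cultures were taken at passages 15 to 20, grew in the same medium and received no treatment that the labels name. The sources used here do not say how Rela was removed or whether the knockout cells were a single clone. The series states 2 biological replicates per genotype, but each genotype has 1 value column and how they were combined is not stated. Differences between genotypes therefore carry no replicate error, and no p-value is given.

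Rela encodes p65, a subunit of the NF-kB transcription factor, which is held in the cytoplasm by inhibitor proteins until a stimulus frees it to enter the nucleus and activate inflammatory and survival genes. Open regions away from annotated starts are often enhancers, short elements that bind transcription factors and act on promoters at a distance, and their use differs more between cell types than that of promoters. A region without an assigned gene has no start of the deposited annotation close by, so its target cannot be read from its position.

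The Rela table had a total normalized signal of 1386832 for the wild type and 1458609 for the knockout, with medians of 34 and 35 per region. Fibroblast markers were represented by regions of 11 of 16 genes, with summed wild-type and knockout signals of 589 and 647, while Col3a1, Dcn, Lum, Col1a1 and Prrx1 had no region. Endothelial and muscle markers had a region for 0 of 4 genes each. Krt19 was present among 6 epithelial genes (8 and 19), and Cd68 and Ptprc among 5 leukocyte genes (summed 70 and 45). The promoter region of Rela itself had a signal of 21 in the wild type and 27 in the knockout, so the promoter cannot serve as a check of the knockout.

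Although unassigned in the deposited table, 4 wild-type-only regions covered part of a RefSeq promoter window (250 bases before to 50 after a start). They were 1.75% of the 228 regions on chromosomes that the RefSeq promoter table covers, against 3.80% of the other unassigned regions with a wild-type signal of 35 or more. Their upstream bases inside the region are shown because these regions reach a RefSeq promoter window, and because no genome sequence was used here for the rest. The sequences are from RefSeq on GRCm38.p6, the assembly that mm10 names, on the plus strand, 5′ to 3′, ending at the last base before the start except for Gm30319, whose region ends earlier. Capitals mark matches on either strand to TEAD (GGAATG), ETS (CCGGAAG) or RUNX (TGTGGT) letters.
Aim2, chr1:173420354-173420603: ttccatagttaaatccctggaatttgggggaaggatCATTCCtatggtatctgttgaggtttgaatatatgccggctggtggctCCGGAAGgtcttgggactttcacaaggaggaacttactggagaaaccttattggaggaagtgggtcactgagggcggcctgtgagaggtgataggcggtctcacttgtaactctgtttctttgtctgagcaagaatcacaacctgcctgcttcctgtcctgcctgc
Cab39l, chr14:59478701-59478950: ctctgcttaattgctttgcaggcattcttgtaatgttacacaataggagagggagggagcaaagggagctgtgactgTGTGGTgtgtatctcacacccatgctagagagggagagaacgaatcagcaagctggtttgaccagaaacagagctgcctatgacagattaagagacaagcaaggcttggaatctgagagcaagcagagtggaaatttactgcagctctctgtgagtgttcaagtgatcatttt
Gm30319, chr2:110295256-110295349: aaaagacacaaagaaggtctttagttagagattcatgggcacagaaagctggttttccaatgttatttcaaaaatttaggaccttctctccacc
Fhl1, chrX:56779433-56779682: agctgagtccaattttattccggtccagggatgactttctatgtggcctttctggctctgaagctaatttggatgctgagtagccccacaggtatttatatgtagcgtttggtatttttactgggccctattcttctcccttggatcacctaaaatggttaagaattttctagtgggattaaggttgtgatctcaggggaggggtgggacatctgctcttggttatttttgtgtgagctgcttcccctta

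Aim2 encodes a cytosolic DNA sensor that assembles an inflammasome, and its region (chr1:173420280-173420643) had a signal of 46 in the wild type and 0 in the knockout. The Aim2 stretch contained a TEAD match on the minus strand, 214 bases before the start, and an ETS match on the plus strand, 166 bases before it. TEAD letters occurred in 12.6% and ETS letters in 6.91% of the 250 upstream bases of 32851 RefSeq windows. Cab39l encodes a scaffold protein related to an activator of the LKB1 kinase. Its region (chr14:59478657-59479052) held 45 and 1, and its stretch had a RUNX match 173 bases before the start, letters found in 14.0% of windows. Fhl1 encodes a LIM domain protein of muscle. The region at its start (chrX:56779230-56779709) held 44 and 3. The predicted gene Gm30319 had a region (chr2:110295019-110295349) with 37 and 1. Fhl1 and Gm30319 stretches held none of the letters searched. No stretch matched AP-1 (TGANTCA, 6.75% of windows), an E-box (CAGCTG, 13.0%), NF-kB by its consensus (3.90%) or the CTCF core by its consensus (2.93%). The 4 stretches had 49.6%, 46%, 37.2% and 44.4% G and C in the order shown, against a median of 52.4% over all windows. Aim2, Cab39l and Fhl1 had 4, 1 and 2 CpG in 250 bases, against a median of 6, and the 94 bases of Gm30319 had 0. No other region of the Rela table was assigned to Aim2, Cab39l, Fhl1 or Gm30319.

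Signal in the wild-type-only regions was moderate. Wild-type values ran from 35 to 146 with a median of 46 and quartiles of 41 and 59, and 133 regions (56.6%) lay under 50. Knockout values were 0 in 66 regions, 1 in 54, 2 in 61 and 3 in 54. Together the regions held 12260 of wild-type signal, 0.884% of the wild-type total, and 338 of knockout signal. Rounding patterns in the deposited values imply that a wild-type signal of 35 stood for about 51 counts and the largest for about 214. The lower exact 95% limit of the wild-type to knockout ratio, for counting error alone, was between 3.96 and 30.3 over the set. Both values entered the rule, so high limits follow from the selection and give the contrast no support. The scatter of unassigned regions shows the set as the lower right corner of a continuous cloud.

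**Figure D1:**
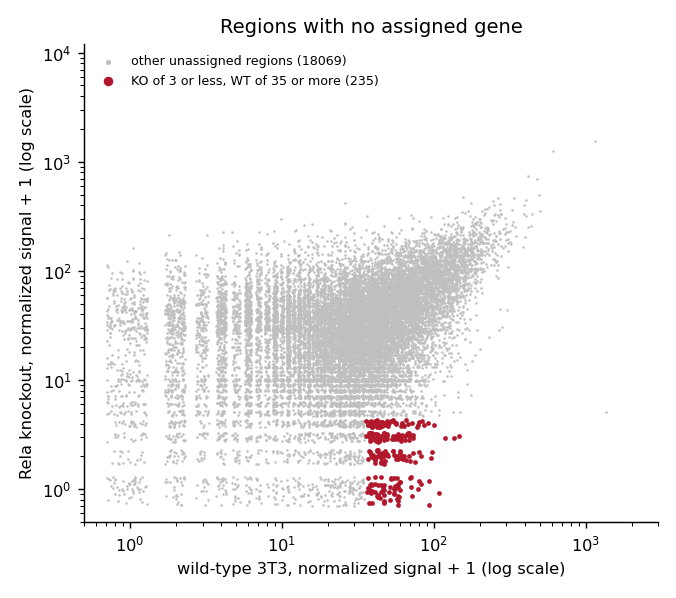
Normalized signal of 18304 regions without an assigned gene, wild-type 3T3 on the horizontal and Rela knockout on the vertical axis, each plus 1 on a log scale with a small random shift to separate equal values. The 235 wild-type-only regions (red) lie at 35 to 146 on the horizontal and 0 to 3 on the vertical axis, and other regions continue on each side of both limits.

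No gap separated the set from its surroundings. At knockout values of 4 and 5, another 65 and 56 unassigned regions had a wild-type signal of 35 or more, about as many as at each value from 0 to 3. At the other limit, 3 of the set had a wild-type signal of exactly 35, and 6 regions just outside had 34. The highest wild-type signal just outside the knockout limit was at chr1:170942205-170947167, which is 4962 bp wide and had 1349 in the wild type and 4 in the knockout.

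The selection was not symmetric. Exchanging the genotypes gave 570 unassigned regions with a knockout signal of 35 or more and a wild-type signal of 3 or less (3.11%), 2.43 times as many. By the factors fitted to the rounding patterns (0.683 and 0.949), the same signal stood for more counts in the wild type than in the knockout. Equal signal limits were thus not equal count limits, and the part of this in the asymmetry was not tested. As a share of unassigned regions with a signal of 35 or more in the genotype that was high, the wild-type-only regions were 3.03% of 7747 and the knockout-only regions 6.94% of 8212. Regions at least 2-fold lower in the knockout, on the log2((knockout + 1)/(wild type + 1)) scale, were 24.4% of unassigned regions and those at least 2-fold higher were 26.6%. All 235 wild-type-only regions are lower by construction. Among gene-assigned regions the same limits were met by 0.493% for wild-type-only and 1.36% for knockout-only.

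The 10 regions with the highest wild-type signal lay 37.0 to 585 kb from the nearest gene-assigned region. The strongest, chr8:22264766-22265332, had a wild-type signal of 146 and a knockout signal of 2, which is a ratio of 73. Its exact 95% interval, which ignores the selection on these values, was 21.1 to 640. It lay between genes, 18.4 kb from the start of Tpte, a testis phosphatase gene, and the nearest gene-assigned region, a promoter of Thsd1, held 58 and 31. Next came chr14:24793597-24794138 with 135 and 2 and chr13:60417394-60417977 with 117 and 2. The last had the opposite change at its nearest gene-assigned region, 237 kb away and 3339 bp from the start of Gas1, which encodes a growth-arrest protein, where the signal was 5 and 37. The region chr18:70697804-70698276 held 107 and 0, 37.6-fold apart at an assumed knockout floor of 3 counts (exact lower limit 30.3). The promoter of Mbd2, which encodes a methyl-CpG-binding protein, was its nearest gene-assigned region and held 44 and 54.

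A region inside Tle1, the gene of a Groucho-family corepressor, held 99 and 3 (chr4:72140631-72141120). On chromosome 10, chr10:43634472-43635104 held 96 and 1. At chr16:14819311-14819808 the values were 94 and 1, and the nearest gene-assigned region, 113 kb away, was the promoter of Snai2, a repressor of epithelial genes, with 113 and 87. Both chr1:168761338-168761946 and chr14:30218056-30218561 held 92 and 0. The latter lies inside Cacna1d, which encodes a calcium channel subunit. The tenth, chr12:58425965-58426614, held 90 and 3. The nearest gene-assigned regions of these 10 had log2 ratios from -0.88 to 2.66, and none was at least 2-fold lower.

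Width was close to that of unassigned regions in general, but below that of the others with a wild-type signal of 35 or more. The median was 389 bp with quartiles of 336.5 and 459, and 1 region of 235 was wider than 1 kb, against 9.42% of the other unassigned regions with a wild-type signal of 35 or more, whose median was 483 bp. Knockout-only regions were narrower, with a median of 364 bp and 0.702% over 1 kb. Unassigned regions as a whole had a median of 368 bp and gene-assigned ones 478 bp. The widest were chr18:62032741-62033761 (1020 bp, signal 72 and 1), chr16:55526378-55527176 (798 bp, 78 and 0) and chr4:101225614-101226401 (787 bp, 55 and 1), the last inside the kinase gene Jak1. The narrowest, chr7:63787333-63787530, spanned 197 bp and held 37 and 0, followed by chr13:51956059-51956286 (227 bp, 42 and 2) and chr2:160064836-160065065 (229 bp, 40 and 1). Wider regions held more signal, with a Spearman rho of 0.63 over the 235 regions and 0.62 over the 7512 others, a description in which width and signal come from the same reads.

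Every autosome and chromosome X held wild-type-only regions, in unequal shares. Chromosome 13 had the most, 26 of 886 unassigned regions (2.93%, exact 95% interval 1.93 to 4.27), followed by X with 10 of 380 (2.63%, 1.27 to 4.79) and chromosome 17 with 18 of 835 (2.16%, 1.28 to 3.39). The lowest shares were 4 of 1196 on chromosome 3 (0.334%, 0.0912 to 0.854) and 6 of 1274 on chromosome 8 (0.471%, 0.173 to 1.02). These intervals cover counting error only. Chromosomes 13 and 3 were picked as the highest and lowest on these same shares, and the intervals treat regions as independent. That their intervals do not overlap is therefore a description and not a test. The same holds for the 18 other chromosomes, of which 7 have an interval wholly below that of chromosome 13. Another 5 have one wholly above that of chromosome 3. The order depends on the denominator. Of unassigned regions with a wild-type signal of 35 or more, X had the highest share (6.80% of 147), followed by chromosome 13 (5.56% of 468). Chromosome 17 then had 3.54% of 508, below chromosomes 6, 10, 1 and 7. Chromosomes 3 (0.897%) and 8 (1.27%) remained lowest.

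Gene-assigned regions tended to move the same way across chromosomes. Their median log2 ratio was lowest on chromosomes 13 (-0.63), 10 (-0.54) and 17 (-0.53), and highest on chromosomes 8 (0.61) and 3 (0.52). On chromosomes 6 and 1, whose shares of 1.91% and 1.70% were at or above that of chromosome 10, it was only -0.20 and -0.09. Across 20 chromosomes the share of wild-type-only regions and this median had a Spearman rho of -0.70, and the share of knockout-only regions had 0.57. Both measures share libraries and contrast, so the rho is a description. Chromosome X departed from the pattern, with a median of 0.00. Whether chromosome copy number differed between the cultures was not tested. Of 274 windows of 10 Mb, the one from 40 to 50 Mb on chromosome 13 held the most, 6 of 90 unassigned regions. Its gene-assigned median log2 ratio was -1.24. The adjacent window from 30 to 40 Mb had a lower median of -1.34 but held only 1 of 82. The other 20 of that chromosome were spread over further windows, 4 each in those from 90 to 100, 100 to 110 and 110 to 120 Mb. Chromosome 6 had 5 each in the adjacent windows from 110 to 120 and 120 to 130 Mb, where the gene-assigned medians were -0.48 and 0.12. No wild-type-only region fell in 133 windows.

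**Figure D2:**
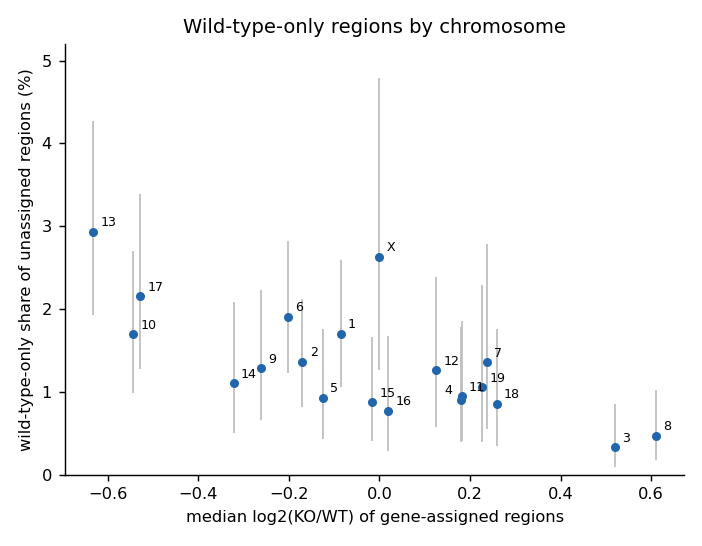
Share of unassigned regions that are wild-type-only (vertical, %) against the median log2 ratio of knockout to wild type of gene-assigned regions (horizontal), 1 point per chromosome, with exact 95% intervals for counting error. Chromosomes 13, 10 and 17 lie at the upper left and chromosomes 3 and 8 at the lower right, while X combines a share of 2.63% with a median of 0.00.

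Few of the regions lay close together along a chromosome. The median gap to the next wild-type-only region was 3265 kb, and 16 of 235 (6.81%) had another within 100 kb, all as pairs. Whether this differs from what 235 regions would show without grouping was not tested. Of the 570 knockout-only regions 20.2% were in groups of up to 4, but they are more numerous, which by itself shortens gaps. The closest pair was chr17:8479500-8480201 (60 and 3) and chr17:8481924-8482319 (50 and 0), 1.72 kb apart with no other region between. Another, on chromosome 1, joined chr1:31778291-31778736 (46 and 1) to chr1:31781874-31782206 (50 and 0). On chromosome X a pair 9.51 kb apart held 44 and 0 and 38 and 0.

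Pairs inside genes lay farther apart. Car10, a carbonic anhydrase-related gene, held chr11:93273914-93274267 (57 and 2) and chr11:93373902-93374459 (72 and 2), with a single region between them at 29 and 0. These formed the longest run of neighbouring table regions with a knockout signal of 3 or less and a wild-type signal of 10 or more that held more than 1 of the set, 3 regions over 101 kb. Of such runs, 788 had 1 region, 57 had 2 and 3 had 3. Cacna2d3, which encodes an auxiliary calcium channel subunit, held chr14:29521372-29521766 (53 and 1) and chr14:29570440-29570810 (61 and 1) with none between. In Nedd9, the gene of a focal adhesion scaffold of the Cas family, chr13:41321447-41321787 (71 and 0) and chr13:41396277-41396584 (37 and 2) flanked 3 regions at 47 and 25, 112 and 43, and 90 and 10. The regions between were lower in the knockout but far from 0.

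Neighbouring regions within 5 kb were mostly lower in the knockout as well. Within 5 kb of a wild-type-only region lay 46 other regions, after leaving out those of the wild-type-only and knockout-only sets, with a median signal of 44.5 in the wild type and 19.5 in the knockout. Of these 46, 26 (56.5%) were at least 2-fold lower and 1 was higher, beside 20.8% lower and 21.0% higher over all regions counted the same way. Around the other unassigned regions with a wild-type signal of 35 or more, 28.8% of neighbours within 5 kb were lower. The 4 gene-assigned neighbours within 5 kb had a median log2 ratio of 0.26 and 0 were at least 2-fold lower. Beside the 14.8% lower over all gene-assigned regions, 4 are too few to show a difference from the other neighbours. The 45 gene-assigned neighbours from 5 to 20 kb had a median of -0.26, or -0.05 with each chromosome centred. Around knockout-only regions the direction was the opposite, with 55.9% of 59 neighbours within 5 kb higher and a median of 1.20. The median log2 ratio of the neighbours was -1.25 within 5 kb, -0.53 from 5 to 20 kb, -0.40 from 50 to 100 kb and -0.23 from 500 to 1000 kb, against -0.34, -0.24, -0.19 and -0.11 around the others. With each chromosome centred on its median, the first value became -1.07 and the last -0.05. The neighbours share libraries and contrast with the rule, so these values are descriptions.

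**Figure D3:**
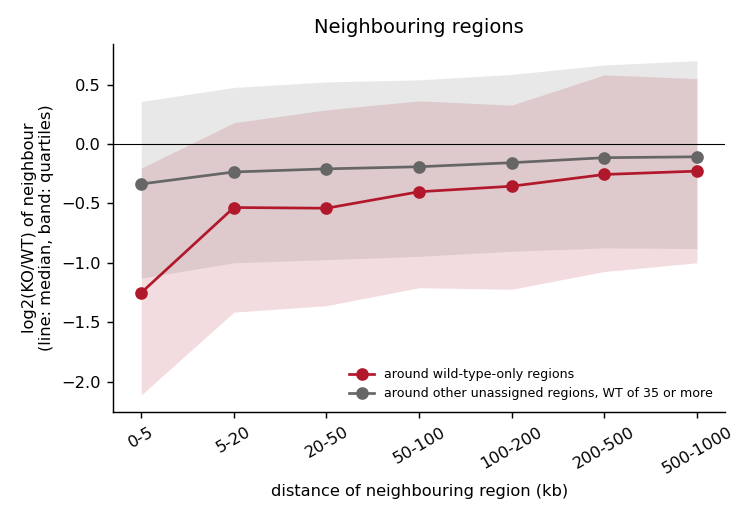
Log2 ratio of knockout to wild type of neighbouring regions by distance in kb (lines: medians; bands: quartiles), around the 235 wild-type-only regions (red) and around 7512 other unassigned regions with a wild-type signal of 35 or more (grey). The red median is -1.25 within 5 kb and -0.23 beyond 500 kb, and the grey one -0.34 and -0.11.

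The nearest gene-assigned region lay 113 kb away at the median (quartiles 35.3 and 245 kb, range 3.17 to 2249 kb), between the 66.2 kb of the other unassigned regions with a wild-type signal of 35 or more and the 185 kb of the knockout-only regions. Over all unassigned regions it was 79.1 kb. It was lower by 2-fold or more for 54 of 235 (23.0%), higher for 25 (10.6%) and within 2-fold for 156 (66.4%). Over all gene-assigned regions 14.8% were lower and 14.8% higher. For the other unassigned regions the nearest was lower in 16.9% and higher in 13.6%. The median log2 ratio was -0.22, against -0.08 for the others, and with chromosomes centred it was 0.025, so its direction does not hold under that scaling.

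Within 10 kb, 5 of 13 nearest gene-assigned regions had more signal in the knockout than in the wild type, all by less than 2-fold, and 8 had less. The smallest distance was 3.17 kb, on chromosome 12, from chr12:105016613-105017074 (67 and 2) to a region of the nesprin gene Syne3 with 46 and 23. A promoter of Lancl2 had a signal of 156 and 165, 3.98 kb from a region with 38 and 0. Sema5a, a semaphorin gene, had 222 and 300 at its promoter and 43 and 3 at a region 4.87 kb away inside the gene. The promoter of Trim16 held 99 and 162 beside a region with 48 and 3. That of Mmp17, a membrane-anchored metalloproteinase gene, held 81 and 124, and that of Lrrc8c, which encodes a volume-regulated anion channel subunit, 118 and 132, each beside a region with 42 in wild-type cells. Nearest regions of ENSMUSG00000103854, App and Stk38l had log2 ratios of -0.71, -0.21 and -0.65, and that of A630033H20Rik fell from 20 to 6. Of the 13 gene-assigned regions within 10 kb, 2 were at least 2-fold lower (15.4%, near the 14.8% over all gene-assigned regions) and 0 higher. Their median log2 ratio was -0.65, against -0.33 at 10 to 50 kb and -0.16 for the 617 nearest regions within 10 kb of other unassigned regions. The other lower one was 4526 bp from the start of Mapk6, an atypical MAP kinase gene, with 32 and 3.

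A nearest gene-assigned region that met the same limits was found for 2 of 235. The region chr10:44015561-44016013 (51 and 0), inside Crybg1, lay 10.9 kb from a pseudogene region with 52 and 0. The other was chr3:52463954-52464244 (37 and 2), whose nearest gene-assigned region, 329 kb away, held 42 and 2. At the Vgll4 locus, which encodes a cofactor that competes with YAP for TEAD, a region with 38 and 3 lay 35.4 kb from a region of the same gene with 25 and 0.

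By RefSeq coordinates 103 of 235 (43.8%) lay within the span of a protein-coding gene, against 50.2% of the other unassigned regions. They fell in 98 genes, 5 of which held 2 each: Cacna2d3, Car10, Myo10, Nedd9 and Zfand3. The spans do not separate exons from introns. Distance to the nearest RefSeq start had a median of 35.9 kb over the 228 regions that could be measured, since RefSeq starts on chromosome 18 were not used here, against 31.2 kb for the others and 76.3 kb for knockout-only regions, and exceeded 100 kb for 26.3%, against 19.4% and 42.8%. No region overlapped a microRNA hairpin.

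For 41 host genes a promoter region, within 2500 bp of the start, was present in the table, and it could be set beside the 43 regions inside those genes. Of these promoters 31 were within 2-fold, 10 were lower by 2-fold or more and 0 were higher, beside 13.1% lower and 13% higher over all promoter regions. Their median signal was 86 in the wild type and 71 in the knockout, and their median log2 ratio was -0.22. The promoter of Tcf7l2, a transcription factor of the Wnt pathway, held 83 in both genotypes while a region 127 kb away in the gene held 38 and 0. Jak1, a cytokine receptor kinase, had 58 and 71 at its promoter and 55 and 1 inside. For Mtor, the nutrient-sensing kinase, the promoter held 56 and 82 and the region 48 and 3. Myo10, a filopodial myosin gene, had 208 and 222 at the promoter, beside regions with 37 and 2 and with 49 and 3. Pard3, a cell polarity gene, had 55 and 108, close to 2-fold higher, and a region with 46 and 0.

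The 10 lower host promoters were those of Kif6 (113 and 21), Prickle2 (25 and 8), Zfand3 (118 and 42), Frs2 (33 and 12), Tmtc2 (215 and 84), Vgll4 (50 and 22), Btbd9 (95 and 44), Exoc4 (87 and 41), Atxn1 (133 and 65) and Rfx2 (85 and 42). They lie on chromosomes 6, 10, 13 and 17, named here only because they hold them, which carried 20 of the 41 host promoters. Gene-assigned medians were negative on these chromosomes but also on others, among them 14 (-0.32) and 9 (-0.26). With each chromosome centred, 2 of 41 were at least 2-fold lower, Kif6 (log2 ratio -1.81) and Prickle2 (-1.36). Vgll4 (-0.98), Zfand3 (-0.91) and Exoc4 (-0.90) then fell just short of that limit. The centred median over the host promoters was -0.17, against -0.22 before, so the smaller count is largely a matter of the threshold. Kif6 encodes a kinesin motor and Prickle2 a planar polarity protein. Whether these promoters changed apart from their chromosomes was not tested.

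**Figure D4:**
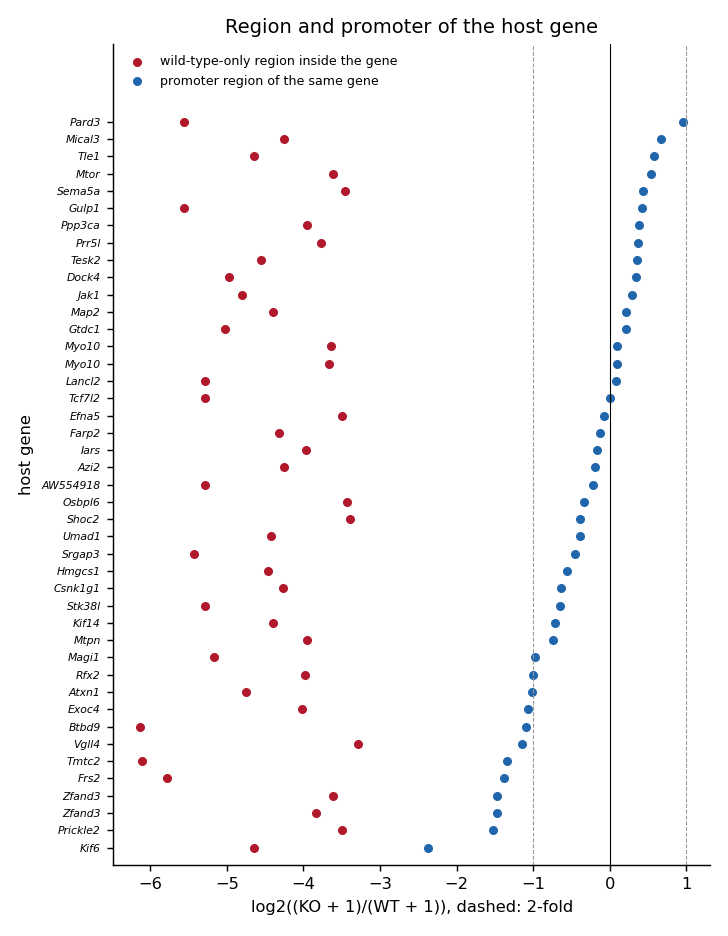
Log2 ratio of knockout to wild type for 43 wild-type-only regions (red) and for the promoter region of the gene that contains each (blue), 1 row per region, sorted by the promoter. Red points lie between -6.13 and -3.29 by choice of the regions, and blue points run from -2.37 at Kif6 to 0.96 at Pard3, with 31 of 41 promoters inside the dashed 2-fold lines.

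Genes of the lists kept for this description were nearest to the set in shares too small to separate from those of other unassigned regions. Of 36 NF-kB targets, 24 had a gene-assigned region, and 1 was nearest to a wild-type-only region (0.426% of the set, against 0.346% of the other unassigned regions). That was Tnfaip3, which encodes the NF-kB inhibitor A20: its promoter held 85 and 43, and chr10:19192889-19193350, 177 kb away, held 67 and 2. Among 23 genes of TGF-beta signalling it was Snai2, also 0.426%, against 0.799%. For 15 AP-1, 40 extracellular matrix, 39 Hox and 16 fibroblast genes the count was 0, beside 0.333%, 0.586%, 0% and 0.173% of the other unassigned regions, so at 235 regions these counts show no difference. No region lay inside a gene of these lists or had its nearest RefSeq start there.

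The Kindlin-2 table comes from other cells and libraries and played no part in the rule. It held 5727 regions, of which 81.6% overlapped a region of the Rela table, and levels were not compared between tables because each was normalized separately. Of the wild-type-only regions, 6 overlapped a kidney fibroblast region by at least 1 base (2.55%, exact 95% interval 0.943 to 5.47). Of the other unassigned regions with a wild-type signal of 35 or more, 19.9% did (19.0 to 20.8). The intervals, which cover counting error only, do not overlap. Those other regions also had knockout signal, with a median of 48. Over all unassigned regions the share was 10.8%, and over the whole Rela table it was 16.1%. Knockout-only regions overlapped in 3.86% (2.43 to 5.79), so the low share was not particular to wild-type-only regions. Gene-assigned regions overlapped in 25.8%.

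Overlap rose with signal among the other unassigned regions, and the set lay below them in each signal range. Between 35 and 49 the shares were 5 of 133 (3.76%, 1.23 to 8.56) and 233 of 2529 (9.21%, 8.11 to 10.4), with overlapping intervals. From 50 to 79 they were 1 of 88 (1.14%, 0.0288 to 6.17) and 438 of 2680 (16.3%, 15.0 to 17.8). Of the 14 strongest, 0 overlapped, which allows up to 23.2%, while 31.2% of the others did (29.1 to 33.4). Wild-type-only regions were also narrower in each range, with median widths of 348, 424 and 553.5 bp against 394, 474.5 and 623, and the part of width was not tested.

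**Figure D5:**
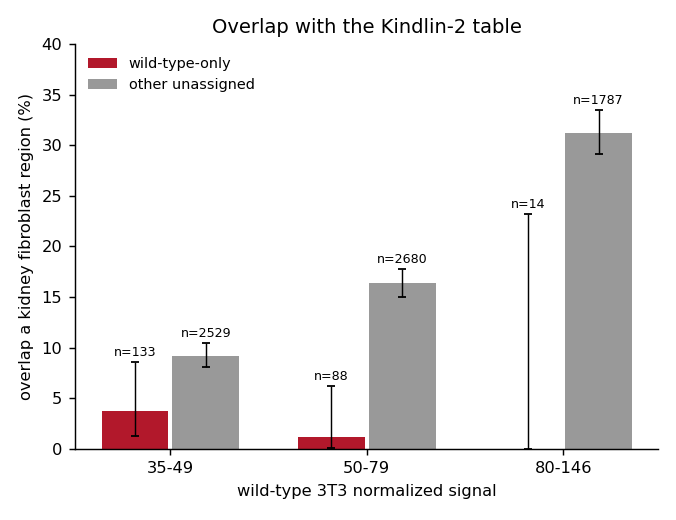
Share of regions that overlap a region of the kidney fibroblast table (vertical, %), by wild-type 3T3 normalized signal (horizontal), for wild-type-only regions (red) and other unassigned regions (grey), with exact 95% intervals and the number of regions. Grey bars rise from 9.21% to 31.2% and red bars stand at 3.76%, 1.14% and 0.

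Each of the 6 overlapping kidney fibroblast regions was also without an assigned gene. That follows largely from their position inside 3T3 regions chosen for having none. On chromosome 1, chr1:6289716-6290057 (48 in wild-type and 2 in Rela knockout 3T3) overlapped a region with 10 in Kindlin-2 floxed and 9 in Kindlin-2 knockout cells. The region chr2:49929972-49930271 (41 and 2), inside Lypd6b, met one with 19 and 11. At chr17:13743717-13744088 (42 and 2) the kidney values were 8 and 6. The other 3 were at least 2-fold higher without Kindlin-2: chr1:160006095-160006632 (77 and 3) with 0 and 7, chr13:81982286-81982816 (37 and 0) with 3 and 15, and chr18:33908158-33908530 (37 and 0), inside Epb41l4a, with 5 and 20. Across kidney fibroblast regions as a whole 16.2% were higher and 9.27% lower. Apart from the values of 20 and 19, the kidney signals at these regions lay below the median of 16 in both kidney columns. Signals of this size leave the extent of the differences uncertain. At each of the 6 the kidney region lay wholly inside the 3T3 region.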

How the data were processed

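ATAC-seq was measured in 4 fibroblast cultures. Values are scores that the authors deposited as whole numbers after background correction and DESeq normalization, per the labels, with 1 column per genotype and a separate table for each knockout. They are called normalized signal, and no count test was run on them. The submitters' processing notes name STAR 2.4.2a, Trimmomatic 0.33 and Picard 1.136, besides FastQC, bedtools, deepTools, MACS2, DESeq2 and the mm10 build, without settings. The distance to the assigned gene's start is another deposited column in bp, per the file headers. Coordinates are as deposited on mm10, and the tables do not say whether starts count from 0 or 1.

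Regions were selected, joined and counted in Python 3.11.15 with pandas 2.3.3, and exact 95% limits came from scipy 1.17.1. A region was called lower or higher at a 2-fold change of log2((knockout + 1)/(wild type + 1)) with a mean of at least 1, and a promoter region had its centre within 2500 bp of the assigned start. Implied counts used factors of 0.683 (wild type) and 0.949 (knockout), fitted to the uneven frequencies of the deposited whole numbers, a step tested on simulated data. They explained 92.9% and 80.5% of the deviance of those frequencies and are estimates, used only for the implied counts and the limits of ratios, which take no account of the background correction. Limits cover counting error only, and those of ratios also ignore the selection of regions on the same values.

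RefSeq names, spans and promoter windows on GRCm38.p6 were used after 6890 of 6891 shared symbols overlapped. The wild-type-only regions and the gene lists were chosen with earlier results of these data known. Named regions are the 10 strongest, the 3 widest and 3 narrowest, all that overlap a Kindlin-2 region, the 10 nearest to a gene-assigned region and those nearest to a listed gene. Pairs, host genes, promoter windows and other examples were chosen after their values were seen. Motifs over the regions themselves were not analysed here, because no genome sequence was used.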

Additional observations from a re-analysis of the deposited data

How the results depend on the processing

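With stricter limits (knockout of 1 or less, wild type of 50 or more) 55 regions qualified, with a median width of 451 bp, 3.64% in groups, 29.1% of nearest gene-assigned regions lower and 0% on a Kindlin-2 region. Looser limits (5 or less, 25 or more) gave 652 regions and a median width of 345.5 bp. A gap of 20 kb put 2.55% in groups and a gap of 500 kb 17.9%. Centring on each chromosome turned the median log2 ratio of the nearest gene-assigned region to 0.025. It left 2 host promoters at least 2-fold lower, while the host promoter median stayed negative at -0.17. Requiring 0.5 of the region to be covered left 0.851% on a Kindlin-2 region, against 8.23% of the other unassigned regions. Over all regions 4980 to 6310 were lower and 5545 to 6363 higher under the scalings, pseudocounts and filter tried. Both limits for width and Kindlin-2 overlap, the stricter limits for nearest regions, and centring for host promoters and neighbours, were chosen after seeing the data. No paired analysis was possible because each genotype has 1 value column. The planned comparison of sequence features was not run, since no genome was used. Knockout values of 0 to 3 are at the limit of what these depths show.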

Other observations

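The same limits were met by 50 of 10141 gene-assigned regions. Of these, 19 (38%) were promoters of protein-coding genes, against 67.9% of all gene-assigned regions, and their median width of 392.5 bp was close to that of the unassigned set. Their wild-type median was 49.5. The following were chosen after their values were seen. The promoter of Dmd, the dystrophin gene, had a signal of 85 in the wild type and 0 in the knockout. Lrrc1, which encodes a leucine-rich repeat protein, had 66 and 0 at 1349 bp from its start. The promoters of Gcnt2, a glycosyltransferase gene, and Snrnp48, which encodes a protein of the minor spliceosome, both lie on chromosome 13 and had 60 and 3 and 64 and 3. Cpa4, a carboxypeptidase gene, had 55 and 3, Mmp3, a matrix metalloproteinase gene, 56 and 3, and Msx1, a homeobox gene, 54 and 1. These regions were selected by the same contrast, so their values are descriptions.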
